A study of Homo sapiens with 14 samples.

Results

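The chemokine and chemokine receptor genes were followed across 14 CUT&Tag peak lists from Jurkat, an immortal line of human leukaemic T cells. CUT&Tag tethers the transposase Tn5 to an antibody and sequences the DNA that it cuts nearby. The genes were all protein-coding genes with a CCL, CXCL, CCR or CXCR symbol and a number, plus CX3CL1, CX3CR1, XCL1, XCL2 and XCR1. The rule found 63 genes in the RefSeq annotation of GRCh38, on chromosomes 1 to 22 and X. Of these, 61 lay on the chromosome sequence itself, 43 ligands and 18 receptors, among 19821 protein-coding genes in all. CCL3L1 and CCL4L1 lay on a scaffold and were not analysed. A gene was counted as having a mark in a library if a peak came within 20 kb of the gene body.

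Cells were infected with a lentivirus that carried an shRNA against SATB1 (shSATB1) or a control shRNA (shCtrl). CTCF was mapped in 3 shSATB1 and 3 shCtrl libraries, and H3K27ac in 2 shSATB1 and 2 shCtrl libraries. SATB1 was mapped in 2 shCtrl libraries alone, and Matrin 3, a nuclear matrix protein, in 2 libraries whose labels name no shRNA. All groups come from 1 cell line. No label says that replicates were separate cultures, so any p measures only how far these libraries vary, and that variation may be technical. Peak lists measure neither SATB1 transcript nor protein, so the knockdown itself is not checked here.

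Chemokines are small secreted proteins that draw cells along a gradient, and they act through G protein-coupled receptors on the responding cell. The families are named by the spacing of their conserved cysteines, and many of their genes sit in clusters that arose by duplication. In T cells, receptors such as CXCR4, CCR9 and CCR7 direct developing and mature cells through thymus, gut and lymph node, whereas most ligands are made by stromal, epithelial and myeloid cells or by lymphocytes after activation. SATB1 is a chromatin organiser abundant in T lineage cells, CTCF marks insulators and loop anchors, and H3K27ac marks active promoters and enhancers.

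Facts of the lists bear on every comparison. All 10 T cell markers checked (CD3D, CD3E, CD3G, CD247, CD2, CD5, LCK, ZAP70, LAT and TRAT1) had H3K27ac within 2 kb in both arms. The same held for 1 of 6 B cell markers (CD79A), 1 of 6 myeloid markers (SPI1), 0 of 5 endothelial and stromal markers and 0 of 4 epithelial markers. CTCF lists held 14695 to 20284 peaks in shSATB1 and 31141 to 32540 in shCtrl, and their lowest total signal was 6017 to 7332 in shSATB1 and 13359 to 14792 in shCtrl. H3K27ac lists held 17925 and 15972 peaks in shSATB1 and 17863 and 17141 in shCtrl, with lowest total signals of 4405 and 4476 in shSATB1 and 6836 and 6653 in shCtrl. The signal was deposited unscaled, and sequencing depth is unknown for want of read totals. A difference between arms cannot be told apart from a difference in depth or calling. In the SATB1 lists 6001 peaks began at the same base (40.8% of the peaks in the shorter one), so the pair was counted as 1 sample with no spread. The Matrin 3 lists held 24566 and 2105 peaks.

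The promoter windows of 6 genes carried the peaks on which the results turn, and they are shown because a CTCF, H3K27ac or SATB1 peak lay over each of them. Each runs from 250 bases before to 50 bases after an annotated start, from RefSeq (GRCh38.p14), read 5′ to 3′ on the gene's strand. They are CCR1 (chr3:46208264-46208563, minus strand), CCR4 (chr3:32951394-32951693, plus strand), CXCL3 (chr4:74038640-74038939, minus strand), CXCR3 (chrX:71618462-71618761, minus strand), CXCR4 (chr2:136118100-136118399, minus strand) and CXCR6 (chr3:45943214-45943513, plus strand). Capitals mark matches, on either strand, to a kappaB-like motif (GGG, then any 5 bases, then CC), to the TATA box TATAAA or to a CTCF core (CCA, any 2 bases, AG, any 2 bases, GGC).
CCR1: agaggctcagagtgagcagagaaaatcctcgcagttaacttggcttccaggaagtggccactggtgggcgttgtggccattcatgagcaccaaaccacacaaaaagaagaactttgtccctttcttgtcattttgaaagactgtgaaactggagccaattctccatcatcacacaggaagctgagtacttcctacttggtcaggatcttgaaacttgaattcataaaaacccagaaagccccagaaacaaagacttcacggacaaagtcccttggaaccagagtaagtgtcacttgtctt
CCR4: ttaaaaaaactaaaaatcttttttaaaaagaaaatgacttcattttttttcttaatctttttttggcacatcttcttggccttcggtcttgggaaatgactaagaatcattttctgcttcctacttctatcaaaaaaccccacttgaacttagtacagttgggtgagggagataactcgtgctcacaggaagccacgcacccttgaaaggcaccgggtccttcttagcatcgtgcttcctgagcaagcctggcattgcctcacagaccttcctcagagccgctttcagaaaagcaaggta
CXCL3: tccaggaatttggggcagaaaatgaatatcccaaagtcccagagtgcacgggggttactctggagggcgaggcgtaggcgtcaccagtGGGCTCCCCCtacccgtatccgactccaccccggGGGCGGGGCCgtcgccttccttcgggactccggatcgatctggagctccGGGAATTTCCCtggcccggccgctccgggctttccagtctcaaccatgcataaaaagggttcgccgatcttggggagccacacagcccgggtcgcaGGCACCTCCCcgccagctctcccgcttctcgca
CXCR3: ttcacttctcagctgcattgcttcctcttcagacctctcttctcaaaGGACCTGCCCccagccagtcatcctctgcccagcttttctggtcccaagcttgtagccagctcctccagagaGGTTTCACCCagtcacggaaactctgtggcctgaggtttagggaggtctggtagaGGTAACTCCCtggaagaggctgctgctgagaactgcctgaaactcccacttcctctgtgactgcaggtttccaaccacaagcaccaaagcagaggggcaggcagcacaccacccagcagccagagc
CXCR4: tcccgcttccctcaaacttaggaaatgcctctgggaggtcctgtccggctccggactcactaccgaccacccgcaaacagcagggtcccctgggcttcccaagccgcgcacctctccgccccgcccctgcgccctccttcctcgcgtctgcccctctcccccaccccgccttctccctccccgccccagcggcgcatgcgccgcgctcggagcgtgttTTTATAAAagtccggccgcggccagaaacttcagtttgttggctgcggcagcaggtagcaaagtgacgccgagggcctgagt
CXCR6: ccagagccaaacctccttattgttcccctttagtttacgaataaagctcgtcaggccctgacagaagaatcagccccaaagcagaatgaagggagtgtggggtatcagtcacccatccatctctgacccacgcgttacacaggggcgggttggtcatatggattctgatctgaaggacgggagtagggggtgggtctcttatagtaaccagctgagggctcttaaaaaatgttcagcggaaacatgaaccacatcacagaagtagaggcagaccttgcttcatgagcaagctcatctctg
CTCF peaks lay over the CCR1, CCR4, CXCL3, CXCR3 and CXCR6 windows in no shSATB1 library and in all 3 shCtrl libraries. Over the CCR4 window H3K27ac was called in no shSATB1 library and in both shCtrl libraries, whereas over the CXCL3 window it was called in both shSATB1 libraries and in no shCtrl library. The CXCR4 window held SATB1, CTCF and H3K27ac peaks in every library of those targets. CXCL3, whose product attracts neutrophils, had the most kappaB-like matches, among them GGGAATTTCC, which begins 79 bases before the start and overlaps a match on the other strand. CXCR3 had 3 such matches, CXCR4 a TATAAA that begins 30 bases before the start, and CCR1, CCR4 and CXCR6 no match. Promoter sequences were matched for 45 of the 61 genes, with 59 windows. The kappaB-like motif was in 30 of these 59 windows (50.8%) and in 58.7% of all 35116 promoter windows of the same length. TATAAA was in 17 of the 59 (28.8%) and in 11.5% of all windows, and the CTCF core in 1 of the 59 and in 2.41% of all windows. A match describes the letters only.

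Chemokine receptor genes were mostly marked in Jurkat and ligand genes mostly were not. Of the 61 genes, 37 had a peak in at least 1 of the 14 lists (60.7%), against 83.1% of all genes. The other 24 had no peak in any list, and 23 of them were ligands. Among these were CXCL12, the stromal ligand of CXCR4, the neutrophil attractants CXCL8, CXCL1, CXCL5 and CXCL6, the interferon-induced CXCL11, and CCL2, CCL5, CCL20, CCL22 and CX3CL1. CCL7, CCL11, CCL14, CCL15, CCL16, CCL18, CCL23 and CCL24 were also without peaks. CCL3 and CCL4 had none either, nor did their near copies: CCL3L3 resembles CCL3 and CCL4L2 resembles CCL4, and the handling of reads that match several copies is not known from the sources used here. The only receptor gene with no peak was CXCR2, a receptor for CXCL8 on neutrophils. Its neighbour CXCR1, which binds the same ligand, had CTCF peaks in all 6 CTCF libraries and no other mark.

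**Figure D1:**
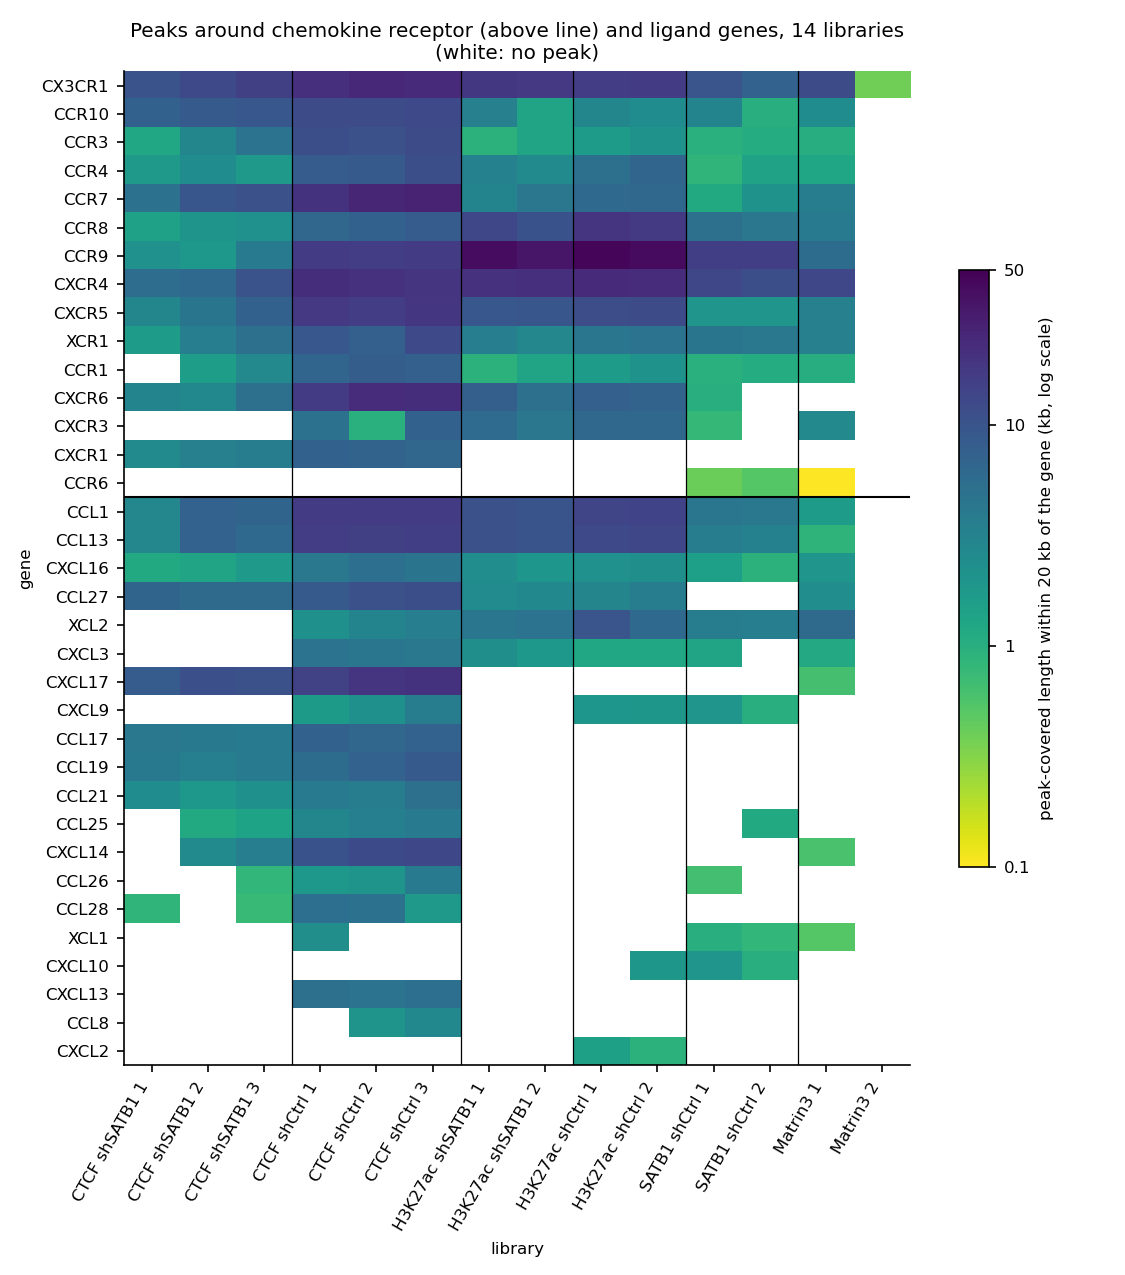
Peak-covered length within 20 kb of the gene (kb, log colour scale) for 35 of the 37 genes with a peak in any list, in each of the 14 libraries. Receptors stand above the line and ligands below it, and white means no peak; most receptor rows are filled across the CTCF, H3K27ac and SATB1 libraries, while many ligand rows hold CTCF alone.

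SATB1 lay within 20 kb of 21 of the 61 genes in both lists (34.4%), against 45.3% of all genes. These were 14 of the 18 receptors and 7 of the 43 ligands. The receptors included CXCR4, CCR4, CX3CR1, CCR8, CCR9, XCR1, CCR1, CCR3, CCR6, CXCR5, CCR7 and CCR10, and the ligands were XCL2, XCL1, CXCL9, CXCL10, CXCL16, CCL13 and CCL1. With a window of 2 kb the count was 12, against 33.6% of all genes. SATB1 stood mainly where H3K27ac stood: 16 of the 21 genes with H3K27ac in both shCtrl libraries had it (76.2%), against 72.6% of all such genes. Of the 39 genes with H3K27ac in neither shCtrl library, 4 had SATB1 (10.3%), against 6.60% of all such genes. XCL1 and CCR6 were among those 4. Both shares are close to those of all genes.

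Peak height within a list is given as a percentile of maximum signal among that list's peaks, a value of the authors' peak caller. By the mean of the lists the highest SATB1 region lay 16.2 kb from CCR8, the receptor for CCL1, at chr3:39349909-39355656, with a percentile of 99.3 and 99.4 in the lists. Near CCR9, the CCL25 receptor of thymocytes and gut-homing T cells, regions at chr3:45912908-45916520 and chr3:45868971-45871409 had mean percentiles of 99.2 and 99.1. Both overlap LZTFL1, whose annotated body also spans CCR9, so these peaks cannot be assigned to 1 of the genes. At CX3CR1, the fractalkine receptor, the region chr3:39260779-39264583 over the 3′ end of the gene had a mean percentile of 98.9. Further down were CXCR4 at chr2:136135079-136138124 (93.3), XCL2 at chr1:168534719-168536957 (91.7) and XCR1 at chr3:46064780-46065896 (86.9). The remaining regions ran down to a mean percentile of 15.7, and that at CCR6 (chr6:167090859-167092305, 19.5 kb from the gene) was among the lowest. In all, 39 SATB1 regions lay within 20 kb of these genes. Of them, 32 overlapped shCtrl CTCF regions (82.1%, against 71.0% of all SATB1 regions), 31 overlapped shCtrl H3K27ac regions (79.5%, against 75.3%) and 33 overlapped the longer Matrin 3 list (84.6%, against 82.9%).

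Matrin 3 lay near 24 of the 61 genes in its longer list (39.3%), against 68.9% of all genes. Near CX3CR1 alone it was called in both lists, against 14.1% of all genes, with 12.0 kb covered in the longer list and 0.389 kb in the shorter. Of the 24 genes, 15 were receptors and 9 ligands.

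CTCF covered less sequence in every shSATB1 library than in every shCtrl library at 32 of the 34 genes that had a CTCF peak in any list (94.1%). The same held for 90.1% of all genes, so the direction is that of the lists as a whole. No gene was more covered in every shSATB1 library, against 0.00625% of all genes. The others, XCL1 and CCL8, had CTCF in 1 and 2 shCtrl libraries alone. For a single gene the smallest two-sided exact permutation p is 0.1 with 3 libraries against 3, which these 32 genes reached, so none can pass 0.05. Among the 32 genes with CTCF in every shCtrl library, the median difference in mean covered length was -70.9% (range -100 to -30.9), against -61.5% for the 15326 such genes in all. CTCF peaks in the 35 merged windows around these genes, 2.55 Mb in all, numbered 41, 48 and 53 in shSATB1 and 79, 82 and 79 in shCtrl, a difference of -40.8% in the mean. Over the whole lists the difference was -44.3%.

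**Figure D2:**
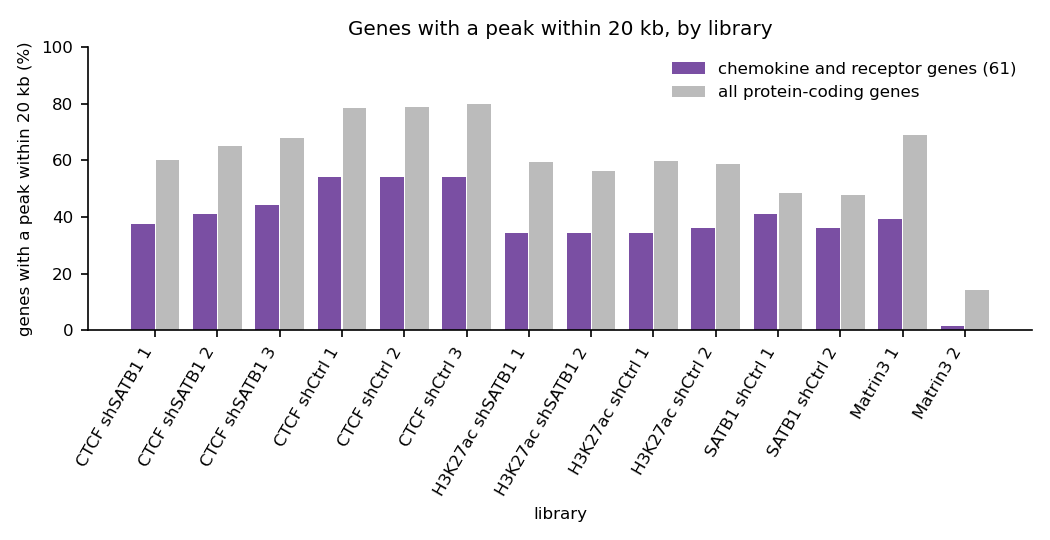
Share of genes (%) with a peak within 20 kb in each library, for the 61 chemokine and receptor genes beside all 19821 protein-coding genes. For CTCF the shares of these genes are 37.7%, 41.0% and 44.3% in shSATB1 and 54.1% in each shCtrl library, and in every library they lie below the share of all genes.

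A CTCF peak stood near 22 of the 61 genes in every shSATB1 library (36.1%, against 58.6% of all genes) and near 32 in every shCtrl library (52.5%, against 77.3%). Receptors accounted for 14 of those in shSATB1 and 16 of those in shCtrl, and ligands for 8 in shSATB1 and 16 in shCtrl. Of the 32, 5 lost CTCF, meaning a peak in no shSATB1 library and in every shCtrl library (15.6%, against 10.2% of all genes). They were CXCL3, the lymphotactin gene XCL2, the interferon-induced CXCL9, the B cell attractant CXCL13 and CXCR3, the receptor for CXCL9, CXCL10 and CXCL11 on effector T cells. No gene gained CTCF (0% of all genes did). The lists differ in length, and with every list cut to the length of the shortest by maximum signal CXCL3 was the only loss left among 24 genes (against 2.23% of all genes). The genes called lost also changed with other settings. Without the lowest 25% of each list they were CXCL3, CXCL13, XCL2 and CCR1, 4 of 30 (against 11.7% of all genes). Within 2 kb they were CXCL3, CXCL13, CXCR3, CCR1, CCR4, CCR8 and CCR9, 7 of 25 (against 13.5% of all genes).

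At CXCL3, CTCF peaks covered no sequence in the shSATB1 libraries, against 4.68, 4.31 and 4.14 kb in the shCtrl libraries. The peak over its start, chr4:74036852-74040002, stood at percentiles of 84.0, 81.1 and 79.2 in the shCtrl lists, the highest of the 22 lost CTCF regions near these genes. A further lost region, chr4:74054023-74055975, lay 15.3 kb from the gene. At XCL2 the shSATB1 libraries had no CTCF and the shCtrl libraries 2.23, 3.01 and 3.53 kb. Both of its lost regions, chr1:168519291-168522453 and chr1:168534884-168536965, overlapped SATB1 and H3K27ac regions, and their shCtrl percentiles were lower, between 33.9 and 48.6. CXCL13 had none in shSATB1, against 5.02, 4.69 and 5.21 kb in shCtrl, over chr4:77598856-77602503 and chr4:77618245-77620202. CXCL9 had none in shSATB1, against 1.71, 2.22 and 3.64 kb in shCtrl, in chr4:75994156-75997793. That region stood at shCtrl percentiles of 33.9, 42.6 and 21.9. CXCR3 had none in shSATB1, against 4.97, 0.971 and 7.23 kb in shCtrl. The region common to all 3 shCtrl lists, chrX:71617199-71619437, lies over the CXCR3 start, at percentiles of 27.4, 15.9 and 30.3. The 3 shCtrl libraries of CXCR3 were the most uneven of the 5 genes.

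CTCF was kept in every shSATB1 library at 14 of the 16 receptors and 8 of the 16 ligands that had it in every shCtrl library, at shorter length, and the difference between the classes was not tested. CXCR4, the receptor for CXCL12 that holds cells in marrow and thymus, had 5.48, 5.95 and 10.1 kb in shSATB1 and 22.04, 20.8 and 19.8 kb in shCtrl. CCR9 had 2.14, 1.84 and 3.87 kb in shSATB1 and 16.6, 16.1 and 16.7 kb in shCtrl, and CXCR6, the receptor for CXCL16, 3.03, 2.75 and 5.06 kb in shSATB1 and 16.4, 22.8 and 22.3 kb in shCtrl. The arms did not overlap for any of them. CCR7, the lymph node homing receptor for CCL19 and CCL21, averaged 8.31 ± 3.00 kb in shSATB1 and 24.3 ± 3.93 kb in shCtrl (SD, n = 3 each). CXCR5, which guides cells to B cell follicles, averaged 4.86 ± 2.21 kb in shSATB1 and 17.5 ± 1.30 kb in shCtrl (SD, n = 3 each). The smallest relative difference of all belonged to CCR10, a receptor for CCL27 and CCL28, with 8.34 ± 0.952 kb in shSATB1 and 12.1 ± 0.510 kb in shCtrl (SD, n = 3 each), or -30.9%. At the edge of its window a CTCF region in TUBG2, chr17:42658249-42660013, was lost.

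Ligands with CTCF and no H3K27ac kept it too in several cases. CXCL17, a mucosal ligand, had 8.12, 10.9 and 10.7 kb in shSATB1 and 15.2, 19.2 and 20.1 kb in shCtrl. CCL17, a ligand of CCR4, had 4.14, 4.06 and 3.74 kb in shSATB1 and 7.26, 6.40 and 7.17 kb in shCtrl. The CCR7 ligands CCL19 and CCL21 share a CTCF region, chr9:34698398-34703598, with mean percentiles of 92.7 in shSATB1 and 96.3 in shCtrl. In CXCL14, CCL25, CCL26 and CCL28, by contrast, at least 1 shSATB1 library had no CTCF while every shCtrl library had it.

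**Figure D3:**
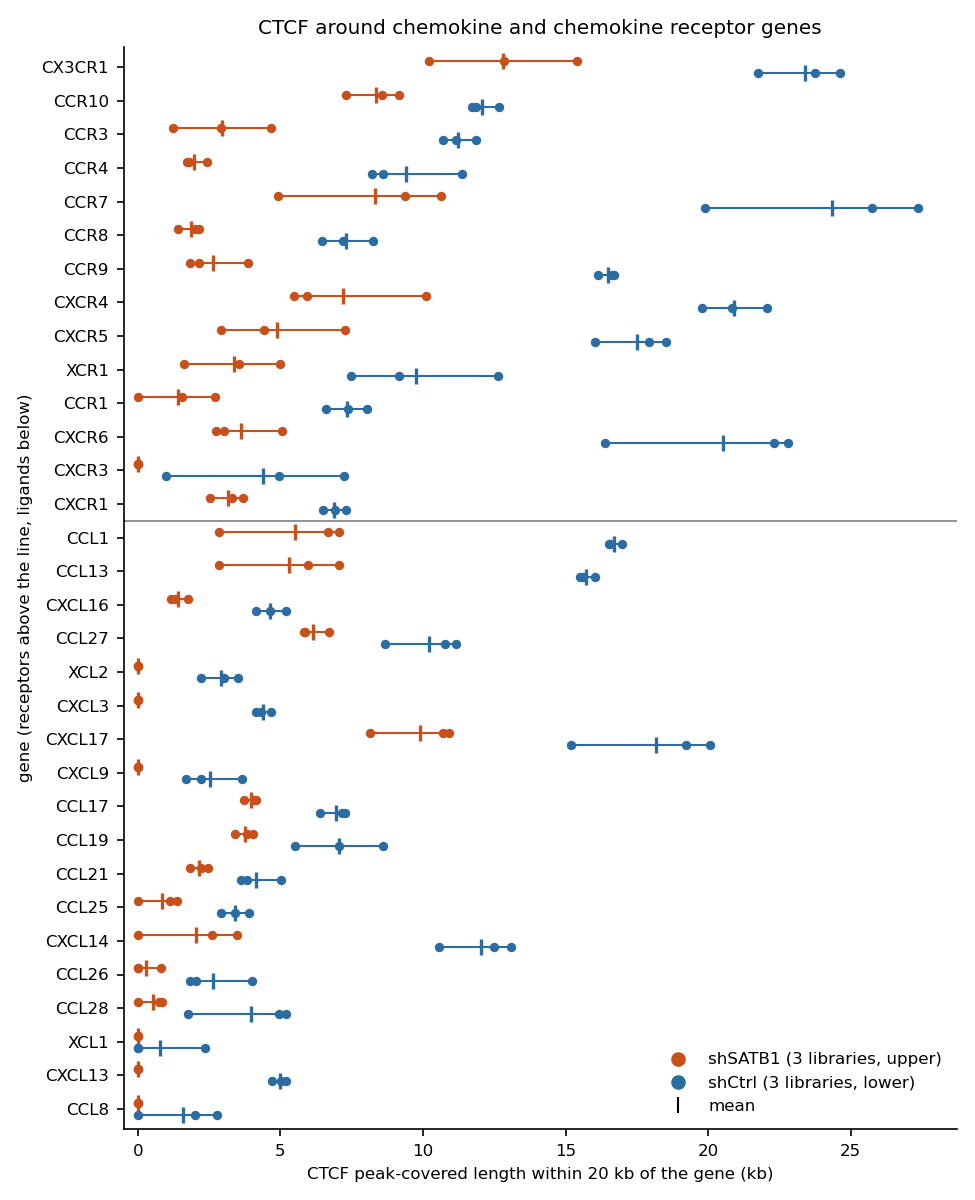
CTCF peak-covered length within 20 kb of the gene (kb) for 32 of the 34 genes with a CTCF peak in any list, receptors above the line and ligands below. Orange points (upper of each pair) are the 3 shSATB1 libraries and blue points (lower) the 3 shCtrl libraries, lines span their range and ticks mark means; the ranges are apart at every gene shown except XCL1 and CCL8.

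Region by region, 22 of the 83 CTCF regions within 20 kb of these genes were lost (26.5%, against 22.7% of all 34146 regions), none was gained (0.00879% of all regions were) and 32 stood in all 6 libraries (38.6%, against 35.7%). Of the 22 lost regions, 5 overlapped SATB1 and 11 overlapped shCtrl H3K27ac. They included 1 over the CCR1 start and the lower-coordinate end of CCR3 (chr3:46206953-46211502) and those at CCR9 (chr3:45892174-45894044 and chr3:45903518-45910654). Another in FYCO1 (chr3:45920214-45926650) lay within 20 kb of both CCR9 and CXCR6, nearer to CXCR6 (14.3 kb). There was also 1 beside CXCR6 (chr3:45949211-45952297). Others lay downstream of CCR3 (chr3:46267924-46270678), at CCR8 (chr3:39329166-39330532), in GLB1 next to CCR4 (chr3:32972382-32976388), at CXCR5 (chr11:118894423-118897652), 15.7 kb from CCR7 (chr17:40581141-40583037) and in ARRB2 near CXCL16 (chr17:4714753-4716502). The 10 on chromosome 3 were low peaks, with mean shCtrl percentiles of at most 32.7, the value in GLB1.

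H3K27ac stood near as many of these genes in shSATB1 as in shCtrl, and few had it in 1 arm alone. A peak stood near 21 of the 61 genes in both shSATB1 libraries (34.4%, against 54.7% of all genes) and near 21 in both shCtrl libraries (against 57.1%). By class these were 15 receptors and 6 ligands in shSATB1, and 13 receptors and 8 ligands in shCtrl. H3K27ac was gained, meaning a peak in both shSATB1 libraries and in neither shCtrl library, at 2 of 39 genes (5.13%, against 1.65% of all genes). Both rested on the same peaks, and without shSATB1 replicate 2 the gain was called at 2 of 39 again but at 5.02% of all genes. It was lost at CXCL2, a neutrophil attractant, and at CXCL9, which makes 2 of 21 genes (9.52%, against 2.36% of all genes). Without shSATB1 replicate 1 it was 2 of 21 again, against 6.55% of all genes. With 2 libraries against 2 the smallest two-sided exact permutation p for a gene is 0.33, so no gene can pass 0.05.

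The losses rested on low peaks. Near CXCL2 no H3K27ac was called in shSATB1, against 1.45 and 0.933 kb in shCtrl, in chr4:74117751-74119661, which is 18.6 kb from the gene and inside MTHFD2L, at percentiles of 18.7 and 33.7. Near CXCL9 none was called in shSATB1, against 1.89 and 1.86 kb in shCtrl, but the shCtrl peaks were different ones. Replicate 1 had chr4:75989400-75991289 in SDAD1, at a percentile of 18.7, and replicate 2 had chr4:76002674-76004535 over CXCL9 itself, at 12.2, which overlaps the SATB1 region shared with CXCL10. No single region near CXCL9 was thus called in both shCtrl libraries. Without the lowest 25% of each list neither gene was called lost.

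At the start of CXCL3, printed above, CTCF and H3K27ac differed between arms in opposite directions. H3K27ac covered 2.28 and 1.80 kb near the gene in shSATB1 and 1.20 and 1.25 kb in shCtrl. The region chr4:74037850-74039187 over the start was called in both shSATB1 libraries and in no shCtrl library, in the stretch where CTCF was lost. Its total signal was 5648 and 4529 in the shSATB1 libraries, at percentiles of 24.98 and 4.91, and both values lie below the lowest total signals of the shCtrl lists. A distal region, chr4:74054152-74055518, had H3K27ac in all 4 libraries. Without the lowest 25% of each list CXCL3 was no longer among the genes with more H3K27ac.

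At CCR4, a receptor for CCL17 and CCL22 on skin-homing, Th2 and regulatory T cells, H3K27ac over the start (chr3:32951166-32953933) was called in no shSATB1 library and in both shCtrl libraries, at percentiles of 3.78 and 33.7. The distal region in GLB1 (chr3:32972437-32978839), with SATB1 within it, was called in all 4. Near the gene H3K27ac covered 3.24 and 2.62 kb in shSATB1 and 5.07 and 6.59 kb in shCtrl. CTCF peaks there were 1738, 2412 and 1794 bp wide in shSATB1, all ending upstream of the start, and 6292, 5971 and 7387 bp wide in shCtrl, all running over it. CCR4 lost H3K27ac only when the window was narrowed to 2 kb.

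**Figure D4:**
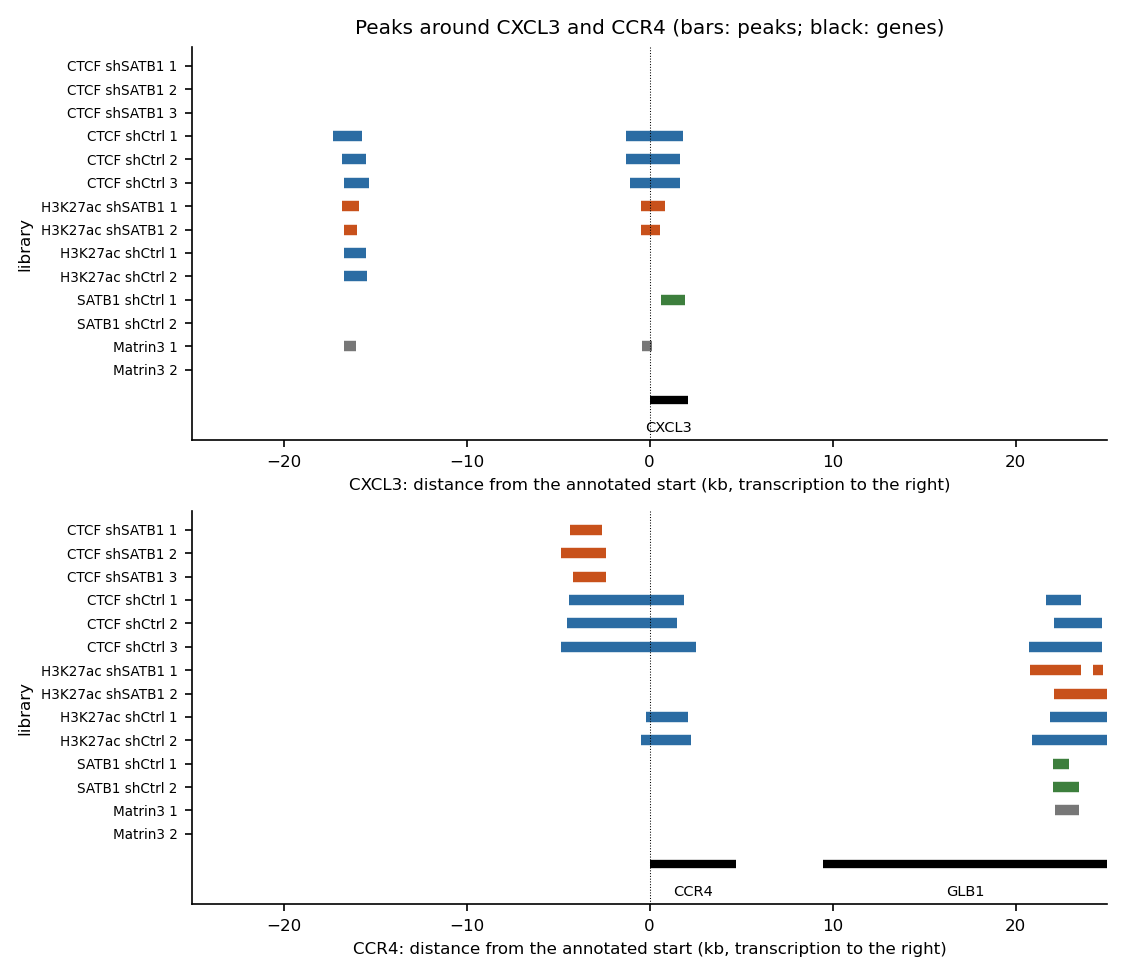
Peaks (bars) of each of the 14 libraries around CXCL3 and CCR4, by distance (kb) from the annotated start, with genes in black, shSATB1 in orange, shCtrl CTCF and H3K27ac in blue, SATB1 in green and Matrin 3 in grey. At the CXCL3 start CTCF bars are in the 3 shCtrl libraries and H3K27ac bars in the 2 shSATB1 libraries, and at the CCR4 start both marks are in shCtrl alone.

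In covered length, H3K27ac was lower in both shSATB1 libraries than in both shCtrl libraries at 16 of the 24 genes with a peak in any list (66.7%, against 41.3% of all genes), and higher at 4 (16.7%, against 6.84%). The lower genes numbered 7 of 17 with a window of 2 kb (37.1% of all genes) and 3 of 24 on 500 bp at the peak maxima (7.55% of all genes). Without shSATB1 replicate 1 they numbered 19 of 24, against 64.0% of all genes. The median difference over the 21 genes with H3K27ac in both shCtrl libraries was -21.5%, against -15.9% for the 11311 such genes in all. CXCL3 and CX3CR1 were among the 4. CX3CR1, found on monocytes and cytotoxic lymphocytes, had 18.4 and 17.9 kb in shSATB1 and 16.0 and 16.7 kb in shCtrl, and 3 small regions there, at percentiles of 2.50 to 21.4, were each called in 1 shSATB1 library and in no shCtrl library. With a window of 50 kb CX3CR1 was among the genes with less H3K27ac, and it was not among those with more within 2 kb, on the peak maxima, without the lowest 25% of each list or with lists of equal length. Without shSATB1 replicate 2 the higher genes numbered 7 of 24, with CCR10, CXCL16 and CXCR6 added, against 23.1% of all genes.

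The widest H3K27ac was at receptors, and it was kept. CXCR4 had a merged region of 29342 bp over the gene and the sequence upstream of it, chr2:136114897-136144238, at percentiles of 98.8 and 98.7 in shSATB1 and 96.6 and 97.2 in shCtrl. It covered 20.6 and 21.7 kb within the CXCR4 window in shSATB1 and 23.1 and 22.7 kb in shCtrl. CCR9 had the most of all, with 41.1 and 34.1 kb in shSATB1 and 46.1 and 41.9 kb in shCtrl, including a region of 27656 bp that runs into FYCO1 and the CXCR6 window (chr3:45902233-45929888). CCR8 had 13.4 and 10.5 kb in shSATB1 and 19.2 and 17.6 kb in shCtrl, including a distal region of 23724 bp (chr3:39342586-39366309) at mean percentiles of 99.8 in shSATB1 and 99.7 in shCtrl. A small region on the other side of CCR8, chr3:39321451-39325131, was lost. At CXCR4, CCR9 and CCR8 both shSATB1 values lay below both shCtrl values. CX3CR1, given above, also had wide H3K27ac, with more in shSATB1 (18.4 and 17.9 kb) than CCR8. There both shSATB1 values lay above both shCtrl values (16.0 and 16.7 kb).

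The receptors other than these and CX3CR1 had less. CCR7 had 3.06 and 4.28 kb in shSATB1 and 5.96 and 6.26 kb in shCtrl, and CXCR5 9.29 and 9.46 kb in shSATB1 and 11.4 and 11.8 kb in shCtrl. XCR1, known from cross-presenting dendritic cells, had 3.49 and 2.83 kb in shSATB1 and 4.33 and 4.73 kb in shCtrl, and CXCR3 5.76 and 4.30 kb in shSATB1 and 6.24 and 6.09 kb in shCtrl. These were lower in both shSATB1 libraries too. The widest H3K27ac region in the CXCR5 window, chr11:118911114-118916181, lies inside BCL9L, at mean percentiles of 90.8 in shSATB1 and 82.6 in shCtrl. The other regions in that window had lower mean percentiles in shSATB1. The lowest of them, chr11:118894563-118896561 over the ends of CXCR5 and BCL9L, stood at 14.5 in shSATB1 and 62.9 in shCtrl. The shSATB1 libraries differed from each other in these regions. In chr11:118891209-118893854 they stood at 68.2 and 30.3, against 73.8 and 70.9 in shCtrl. For CXCR6 (7.54 and 5.10 kb in shSATB1, 7.40 and 6.90 kb in shCtrl) and CCR10 (3.35 and 1.33 kb in shSATB1, 2.90 and 2.46 kb in shCtrl) the arms overlapped. The CXCR6 peaks belong to the region that runs from CCR9 into FYCO1, and the CCR10 region also overlaps PLEKHH3. CCR1, a receptor of monocytes and neutrophils, and CCR3, the eotaxin receptor of eosinophils, share 1 peak, with 0.920 and 1.34 kb in shSATB1 and 1.67 and 2.11 kb in shCtrl. CXCR1 and CCR6, the CCL20 receptor, had no H3K27ac in any library.

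Among ligands, CCL1, which activated T cells make, and its neighbour CCL13 share a region of 13463 bp, chr17:34359300-34372762. Near CCL1, H3K27ac covered 10.7 and 9.84 kb in shSATB1 and 13.8 and 14.3 kb in shCtrl. A CTCF region that overlaps the same stretch, chr17:34356414-34374025, was called in all 6 libraries, and SATB1 lay in the stretch in both lists. Within 20 kb of CCL1, CTCF covered 2.84, 7.06 and 6.67 kb in shSATB1 and 17.0, 16.6 and 16.5 kb in shCtrl. These lengths include part of a distal CTCF region, chr17:34382169-34394080. A distal H3K27ac region 19.0 kb from CCL1, chr17:34382186-34383808, which overlaps SATB1, was lost. XCL2 had 4.33 and 4.67 kb in shSATB1 and 9.61 and 6.02 kb in shCtrl. CXCL16, the transmembrane ligand of CXCR6, had 2.36 and 1.92 kb in shSATB1 and 2.17 and 2.28 kb in shCtrl, so its arms overlapped, and CCL27 had 2.47 and 2.78 kb in shSATB1 and 2.92 and 3.62 kb in shCtrl. The CXCL16 and CCL27 windows also hold MED11, ARRB2, GALT and PHF24, and a peak there need not belong to the chemokine gene.

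**Figure D5:**
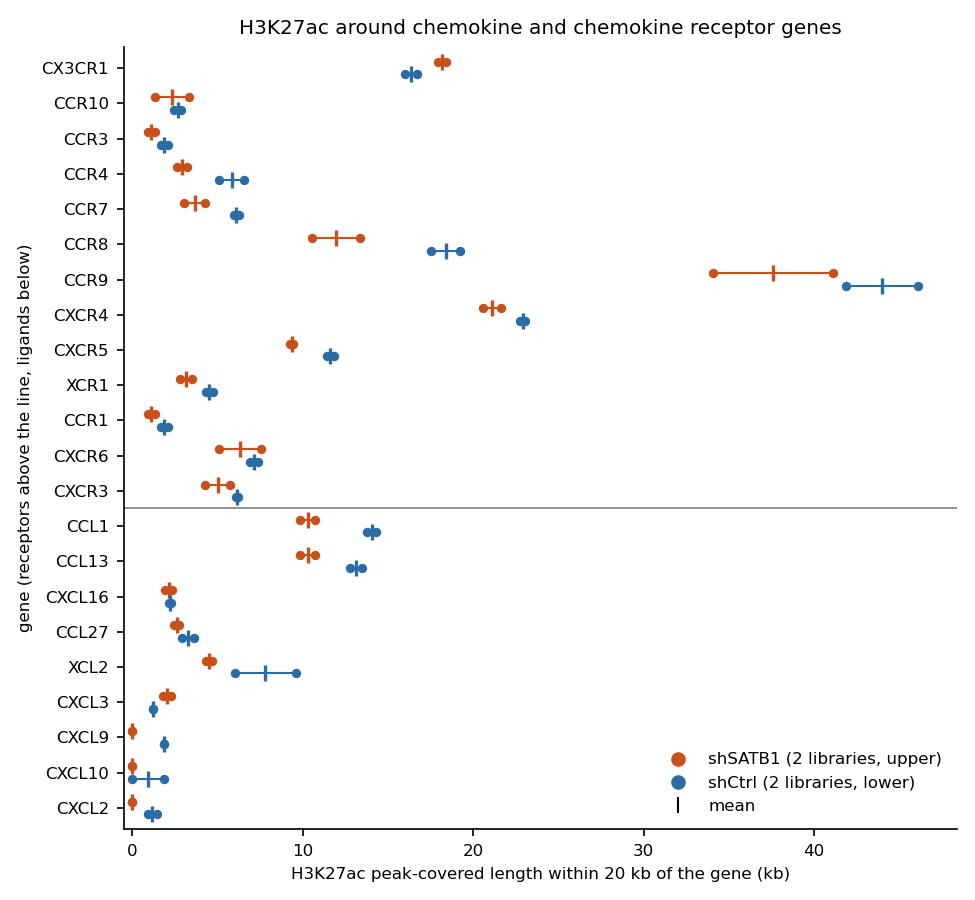
H3K27ac peak-covered length within 20 kb of the gene (kb) for 22 of the 24 genes with an H3K27ac peak in any list, receptors above the line and ligands below. Orange points (upper) are the 2 shSATB1 libraries, blue points (lower) the 2 shCtrl libraries and ticks the means; CXCL2 and CXCL9 have H3K27ac in both shCtrl libraries and in no shSATB1 library, and CCR9 has the most in both arms.

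Over regions, 4 of 49 H3K27ac regions near these genes were lost (8.16%, against 5.95% of all 20526) and 2 were gained (4.08%, against 2.62%), while 31 stood in all 4 libraries (63.3%, against 59.7%). Of the 31, 21 overlapped SATB1. These are the regions named above at CCL1, CCR4, CCR8 and CXCL2 for the losses, and at CXCL3 among the gains. These shares were not tested against each other.

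Genes that act with chemokine receptors were taken from a list of 36, all matched: atypical receptors, platelet chemokines outside the naming rule, G protein subunits, arrestins, receptor kinases, Rac and integrin activators and others. SATB1 lay near 24 of them (66.7%, against 45.3% of all genes). CTCF was called near 23 in every shSATB1 library (63.9%, against 58.6% of all genes) and near 30 in every shCtrl library (83.3%, against 77.3%). It was less covered in every shSATB1 library at 30 of 30 genes with a CTCF peak (90.1% of all genes), lost at 3 of 30 (10.0%, against 10.2%) and gained at 0. The 3 were CMKLR1, the chemerin receptor (0 kb in shSATB1, 5.38, 4.19 and 4.26 kb in shCtrl), GPR183, the oxysterol receptor (0 kb in shSATB1, 1.08, 1.22 and 3.09 kb in shCtrl), and DPP4, a peptidase that trims chemokines (0 kb in shSATB1, 3.07, 4.15 and 3.77 kb in shCtrl). H3K27ac was called near 26 in both shSATB1 libraries (72.2%, against 54.7% of all genes) and near 28 in both shCtrl libraries (77.8%, against 57.1%), with 0 lost (2.36% of all genes) and 0 gained (1.65% of all genes). It was less covered in both shSATB1 libraries at 13 of 28 (46.4%, against 41.3% of all genes), among them DPP4 (5.79 and 6.14 kb in shSATB1, 9.96 and 12.2 kb in shCtrl) and the scavenging CXCL12 receptor ACKR3 (8.78 and 6.66 kb in shSATB1, 10.3 and 12.0 kb in shCtrl). It was more covered at 2 of 28 (7.14%, against 6.84% of all genes). GPR183 had 2.99 and 2.11 kb in shSATB1 and 1.08 and 1.23 kb in shCtrl, and PIK3CG, a kinase that acts downstream of chemokine receptors in leukocytes, 2.42 and 2.18 kb in shSATB1 and 2.06 and 2.14 kb in shCtrl.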

How the data were processed

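The 14 libraries have a peak list each on GRCh38, called separately for every library. Beside the position of a peak, the authors' files hold its total signal (the coverage added up along the peak) and its maximum signal, as whole numbers with no scaling recorded. The submitters' processing notes name Trim Galore, Bowtie2, SAMtools, deepTools, SEACR and, except for Matrin 3, MACS2. No source used here gives their versions, a control library or the alignment filter, and depth is unknown.

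Only peaks on chromosomes 1 to 22 and X entered, which left out 405 of 273747 (0.148%). Protein-coding genes came from RefSeq (GRCh38.p14), without those placed on scaffolds. A gene had a peak if at least 1 bp lay within 20 kb of its body. Strand came with the promoter sequences, for 45 genes. Peaks of all libraries of a target that shared at least 1 bp were merged into regions. A region or gene was lost if called in no shSATB1 library and in every shCtrl library, and gained in the reverse case. Maximum signal was used only within a list, as a percentile or to rank its peaks. Total signal was used, unscaled, to give the lowest value of each list and to set the CXCL3 peaks against those values. No test was run on counts of genes; single genes have two-sided exact permutation tests over libraries. The members and lists were chosen with earlier results of these data known. The rule for named genes took those with SATB1 in both lists, with H3K27ac in every library of an arm, or that lost or gained CTCF or H3K27ac, and regions lost or gained. CXCR1, CXCR2, the ligands with CTCF alone, the genes with no peak and ACKR3 were chosen after their values were seen. Of the members that enter the counts, 1 is not reported here and 2 are left out of the figures. The calling of losses was tested by taking the peaks near randomly picked genes out of a shCtrl list of each target. No gains were planted, and calls across all libraries of an arm were not tested in this way. Alternatives were windows of 2 and 50 kb, at least 50% of a peak in the window, lists without their lowest 25%, 500 bp on the peak maxima, lists cut to equal length, leaving libraries out singly and blocking on the replicate number. Software was Python 3.11.15 with pandas 2.3.3, numpy 2.4.6, matplotlib 3.10.9 and scipy 1.17.1. Positions are 1-based.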

Additional observations from a re-analysis of the deposited data

How the results depend on the processing

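Of 74 recomputed counts, 60 stayed within 1.5 times the reported one and 14 did not, and of 54 recomputed single-gene differences 23 stayed within 1 SD, 31 moved and 0 reversed. Genes that lost CTCF numbered 5, but 11 of 44 with a window of 50 kb (7.56% of all genes) and 1 of 24 with lists cut to the shortest (2.23% of all genes). Genes with less CTCF coverage numbered 32, but 15 of 34 on 500 bp at the peak maxima (38.4% of all genes) and 21 of 28 with lists cut to the shortest (66.8% of all genes). Genes that lost H3K27ac numbered 2, but 1 of 13 within 2 kb (CCR4; 2.74% of all genes), 4 of 33 within 50 kb (CXCL9, CXCL10, CXCL11 and CCL25; 1.95%) and 0 of 18 without the lowest 25% of each list (2.91%). Genes that gained it numbered 2, but 4 of 28 within 50 kb, with CCL26 and CXCL5 added (2.00% of all genes). Genes with more H3K27ac coverage numbered 4, but 2 of 17 within 2 kb (7.18% of all genes) and 2 of 22 without the lowest 25% (7.68%). Genes with less H3K27ac coverage numbered 16, but 7 of 17 within 2 kb (37.1% of all genes) and 3 of 24 on the peak maxima (7.55%). Genes with SATB1 numbered 21, but 12 of 61 within 2 kb (33.6% of all genes). Apart from the cut lists, where fewer peaks are left, and the windows, which hold more or fewer peaks, the cause was not tested. Leaving out each library in turn gave 5 to 6 CTCF losses, 32 to 33 genes with less CTCF, 2 to 3 H3K27ac losses, 2 to 2 gains, 16 to 19 genes with less and 4 to 7 with more H3K27ac, and 22 to 25 with SATB1. The shares of all genes were then 10.3% to 14.4% for CTCF losses, 90.3% to 93.6% for less CTCF and 47.6% to 48.4% for SATB1. For H3K27ac they were 2.60% to 5.02% for gains, 3.21% to 6.55% for losses, 48.8% to 64.0% for less and 12.2% to 23.1% for more. With all libraries these H3K27ac shares were 1.65%, 2.36%, 41.3% and 6.84%. The share for gains thus rose while the count of gains stayed at 2. Same-numbered libraries did not deviate together (correlation of deviations 0.00456, 0.0194 and -0.0262 for CTCF and 0.0195 for H3K27ac), so no pairing by number was seen. Such values cannot show that same-numbered libraries were prepared apart. With 2 H3K27ac libraries per arm the deviations mirror each other, so unlike numbers give -0.0195 by construction. With the replicate number as a block the counts of genes with less CTCF, less H3K27ac and more H3K27ac were 32, 16 and 4, as without it. The shares of all genes were 93.5%, 50.3% and 10.0% with the block, against 90.1%, 41.3% and 6.84% without it. Depth is unknown, so an absent peak shows only that none was called.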
